A study of Mus musculus with 6 samples.

Results

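The genes described here are 10 members of the liver X receptor (LXR) axis of sterol efflux and lipoprotein assembly, chosen by symbol as a functional group. They are *Nr1h2* and *Nr1h3*, which encode the receptors LXRβ and LXRα, the sterol transporters *Abca1* and *Abcg1*, the apolipoprotein genes *Apoe*, *Apoc1*, *Apoc2* and *Apoc4*, the phospholipid transfer protein gene *Pltp*, and the lysophospholipid acyltransferase gene *Lpcat3*. All 10 are present among the 46078 genes of the count tables, and all 10 are among the 15554 genes that had enough counts to be tested. The samples were 3 infarcts and 3 contralateral cortices of wild-type C57BL/6J mice, each sequenced as 1 bulk mRNA library, and their recorded age is 3 months. Every sample came from an animal with a stroke, made by occluding the distal middle cerebral artery and then exposing the animal to hypoxia, and was taken at 7 weeks, so the contralateral cortex is the unlesioned side of a stroke brain and not the cortex of an unoperated animal. The infarcts were cut out by eye, the sample records name no drug treatment for any sample, and they do not tie an infarct to the contralateral cortex of the same mouse. No record states that the samples of a region came from separate animals, so *p* values measure the spread between these samples.

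LXRα and LXRβ are nuclear receptors that are activated by oxysterols. They bind DNA as heterodimers with retinoid X receptors (RXR) and switch on the genes by which a cell disposes of cholesterol: *Abca1* and *Abcg1* move cholesterol out of the cell, apolipoproteins accept it, and *Pltp* and *Lpcat3* remodel the phospholipids around it. In brain, astrocytes and microglia are known sources of apolipoprotein E particles, and in lipid-loaded macrophages the same axis is the main route of cholesterol export.

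The classic LXR response element, DR4, is a pair of AGGTCA hexamers in the same orientation separated by 4 bases, written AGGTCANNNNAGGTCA. Promoter windows, from 250 bases before to 50 bases after an annotated start site, were available for 8 of the 10 genes in RefSeq sequences of GRCm38.p6, as 11 windows. Both strands were searched. The *Abca1* window was the only one of the 11 with a DR4 that differed from the consensus in at most 3 of its 12 fixed letters, and 21.9% of the 32851 windows of all genes held such a match. The hexamer AGGTCA itself, on either strand, lay in the windows of *Apoc2* and *Apoc4*, and in 16.3% of all windows. The 3 promoters are printed because they hold these letters. Each is shown 5′ to 3′ on the strand of its gene, which is the minus strand in all 3 cases, ending immediately before the annotated gene body. Capitals mark the 2 hexamers of the DR4 match in *Abca1*, which lies on the opposite strand, and the AGGTCA hexamer in *Apoc2* and *Apoc4*. The stretches are chr4:53159896-53160145 for *Abca1*, chr7:19677942-19678082 for *Apoc2* and chr7:19681480-19681710 for *Apoc4*.
Abca1: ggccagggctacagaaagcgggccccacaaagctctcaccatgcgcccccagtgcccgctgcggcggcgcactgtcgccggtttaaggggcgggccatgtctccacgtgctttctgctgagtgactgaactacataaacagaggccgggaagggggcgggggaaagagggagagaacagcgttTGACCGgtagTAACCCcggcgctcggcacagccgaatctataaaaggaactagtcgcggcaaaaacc
Apoc2: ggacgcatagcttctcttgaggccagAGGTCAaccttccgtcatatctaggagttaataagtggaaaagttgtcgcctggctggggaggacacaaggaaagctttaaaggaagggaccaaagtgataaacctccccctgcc
Apoc4: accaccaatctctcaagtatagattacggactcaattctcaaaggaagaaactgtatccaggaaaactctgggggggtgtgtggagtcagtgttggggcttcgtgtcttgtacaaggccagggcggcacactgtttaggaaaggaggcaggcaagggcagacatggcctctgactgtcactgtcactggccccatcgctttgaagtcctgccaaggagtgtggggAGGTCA
The *Abca1* match begins 67 bases before the start site, and the hexamers of *Apoc2* and *Apoc4* begin 115 and 25 bases before theirs. The hexamer TATAAA, to which the general transcription factor TBP binds, stood on the gene's strand in windows of *Abca1*, *Apoe* and *Pltp* and in 8.32% of all windows. In *Abca1* it lay in the printed stretch. In *Apoe* it stood only in the window of a start site inside the gene body (chr7:19698621). In *Pltp* the 247 bases immediately upstream of the gene body did not hold it. These are matches of letters within the windows, and no binding of the receptors was measured here.

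Counts on genes totaled 11943570 to 19933962 per library. In the text, CPM is the count relative to library size (counts per 1000000) after scaling with the trimmed mean of M values (TMM), and SE is the standard error of a fitted log2 fold change. A gene was called at a fold change above 2 in either direction with an adjusted *p* under 0.05 (edgeR, quasi-likelihood test, adjusted over all genes tested by the Benjamini-Hochberg method). Markers of the expected cell types were present on both sides, and cell makeup differed strongly. Of 8 macrophage markers, 8 rose in infarcts, with a summed level of 6022 to 9696 CPM compared with 167 to 223 CPM in contralateral cortices, and 6 of 6 fibroblast markers rose, from 146 to 189 CPM up to 6927 to 8680 CPM. Of 8 neuron markers, 8 fell, from 7495 to 8574 CPM down to 481 to 1306 CPM. Microglia markers summed to 870 to 908 CPM in infarcts and to 302 to 346 CPM in contralateral cortices, with 3 of 8 called higher. Oligodendrocyte markers summed to 4341 to 6973 and 2175 to 2600 CPM, with 4 of 7 called higher. Among 8 astrocyte markers 3 rose and 1 fell, and their sum was 5409 to 7838 CPM in infarcts compared with 13610 to 14496 CPM on the contralateral side. The fallen gene, *Slc1a2*, set the direction of this sum, since the other 7 markers summed to 3033 to 3916 CPM in infarcts and 1502 to 1818 CPM contralaterally. Of 6 endothelial markers 2 rose, with sums of 391 to 508 and 311 to 355 CPM. Choroid plexus markers, from a tissue rich in lipid transport genes, summed to only 15.0 to 23.7 and 6.32 to 7.36 CPM, with 2 of the 3 tested called higher and *Ttr* too low to be tested. No marker of any of these lists was at 0 in every library. In bulk tissue, more cells of a type cannot be told apart from more RNA per cell, and the part of these cell types in the results that follow was not tested.

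The axis was upregulated in infarcts with 1 exception. Of the 10 genes, 9 were called higher and 0 lower, and *Nr1h2* was not called. Among the 9, *Apoc1*, *Apoc2* and *Apoc4* had enough counts to be tested only through the infarcts, so they could hardly have been called otherwise. Of all genes tested, 25.7% were called higher and 20.9% lower. The same 9 genes had no overlap between the regions, which held for 37.6% of all genes in the higher and 34.7% in the lower direction. The median log2 fold change was 3.53 over the 10 genes, or 3.27 with the 2 genes that had no contralateral count set to their lower bounds, and 0.03 over all genes. Together the 10 genes took 0.529%, 0.423% and 0.387% of the counts in infarcts 1, 2 and 3, and 0.0265% to 0.0301% in contralateral cortices. *Abca1* alone supplied 59.7% to 68.2% of these counts in infarcts, but 26.5% to 36.4% on the contralateral side.

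**Figure D1:**
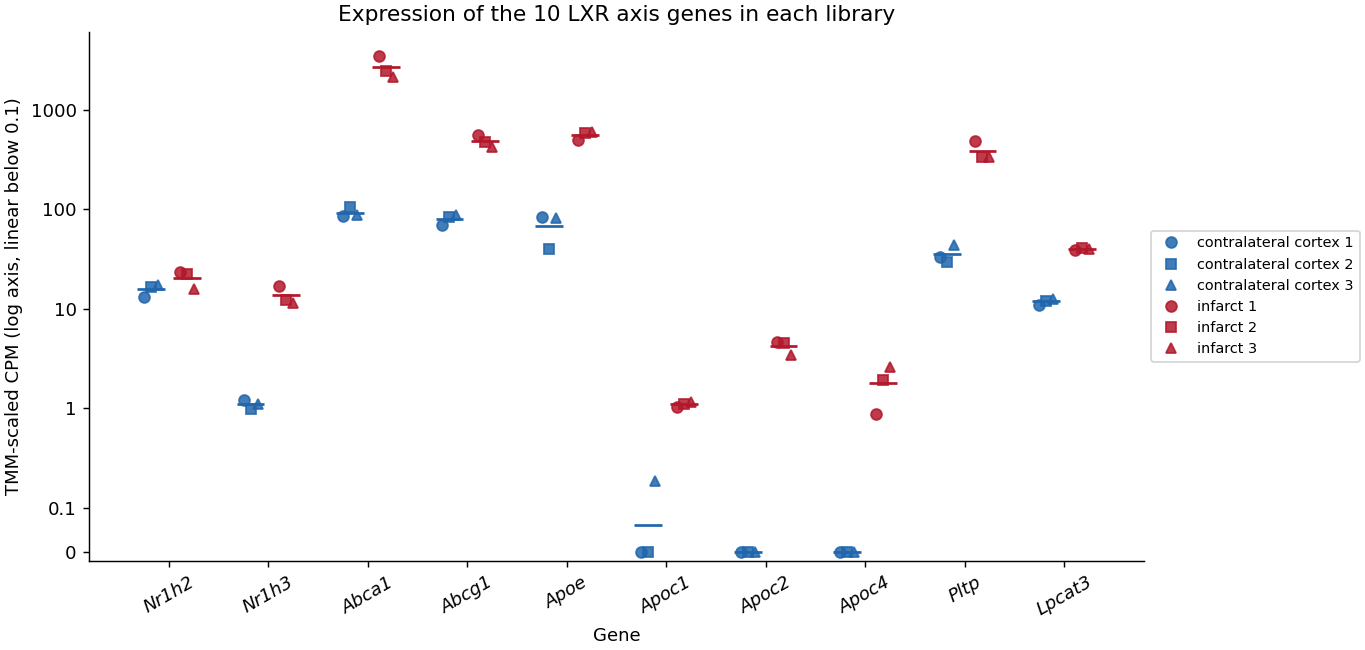
TMM-scaled CPM of the 10 genes on a log axis that turns linear below 0.1, with 1 symbol per library (blue, contralateral cortices; red, infarcts) and a bar at the mean of 3. The infarct points lie above all contralateral points for every gene except *Nr1h2*, and *Apoc2* and *Apoc4* are at 0 in all 3 contralateral cortices.

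Of the 2 receptors, *Nr1h3* was upregulated and *Nr1h2* was not called. *Nr1h3* (LXRα, ENSMUSG00000002108, chr2:91184061-91202834, minus strand) is the isoform typical of macrophages and liver, and *Nr1h2* (LXRβ, ENSMUSG00000060601, chr7:44549616-44553951, minus strand) is expressed in most tissues. *Nr1h3* had 17.0, 12.3 and 11.4 CPM in infarcts 1, 2 and 3 and 1.20, 0.977 and 1.11 CPM in contralateral cortices 1, 2 and 3. The lowest infarct was far above the highest contralateral cortex, and the log2 fold change was 3.61 (SE 0.27, adjusted *p* = 2.74e-06). *Nr1h2* had 23.2, 22.1 and 15.8 CPM in infarcts against 13.2, 16.7 and 17.4 CPM in the contralateral cortices. Infarct 3 lay inside the contralateral range, and the log2 fold change was 0.38 (SE 0.20, adjusted *p* = 0.131). The adjusted *p* of *Nr1h2* passed 0.05 without infarct 3 (0.0304, log2 fold change 0.54) and with scaling by library totals (0.0248, log2 fold change 0.58), in both cases at a fold change below 2. By adjusted *p* alone, 34.2% of all genes were higher and 30.8% lower in infarcts.

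The receptors can be set against each other per length of exon. Per kb of exon, *Nr1h3* was at 5.40 ± 1.21 CPM in the infarcts, and 0.435 ± 0.045 CPM contralaterally, and *Nr1h2* was at 6.07 ± 1.18 and 4.69 ± 0.67 CPM (SD, n = 3). The ranges of the 2 genes overlapped across infarcts but not across contralateral cortices. Within each library of either region *Nr1h2* lay above *Nr1h3*. *Nr1h3* made up 49.5%, 42.5% and 49.0% of the pair in infarcts 1, 2 and 3, but 10.9%, 7.25% and 7.84% on the contralateral side. These shares rest on the choice of length. With the longest transcript as the length, *Nr1h3* was at 6.84 ± 1.53 and *Nr1h2* at 10.2 ± 1.98 CPM per kb in infarcts, again with overlap. On the log2 scale the ratio of *Nr1h3* to *Nr1h2* was higher by 3.25 in infarcts by either length. All 3 infarcts lay above all 3 contralateral cortices. An exact two-sided permutation test gave *p* = 0.1, the smallest value that 3 against 3 libraries allow.

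**Figure D2:**
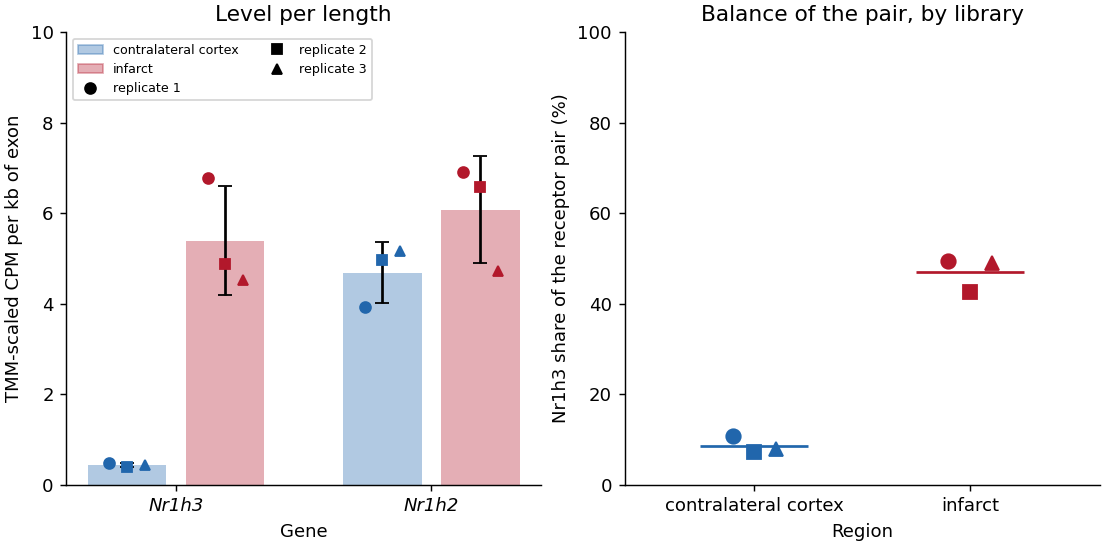
Left, TMM-scaled CPM per kb of exon for *Nr1h3* and *Nr1h2*, with bars at the mean, error bars of 1 SD (n = 3) and 1 symbol per library. Right, *Nr1h3* as a percentage of the pair per kb of exon in each library, 42.5% to 49.5% in infarcts and 7.25% to 10.9% on the contralateral side.

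Most partners of the receptors were not called. Of 9 RXR and coregulator genes, 2 were called higher, 1 was called lower and 6 were not called, with a median log2 fold change of -0.19. Over all genes tested, 25.7% were called higher and 20.9% lower, and the counts of the related lists below have the same background. *Rxra*, which encodes the RXRα partner, rose from 31.2 to 35.3 CPM in contralateral cortices to 123 to 140 CPM in infarcts (log2 fold change 1.99, SE 0.14, adjusted *p* = 1.73e-06). *Rxrb* and *Rxrg* had log2 fold changes of -0.26 and 0.11 and were not called. *Ncoa3*, a coactivator of nuclear receptors, rose (1.38), and *Ncoa1*, another coactivator, fell (-1.22). *Ncor1*, a corepressor, and *Ncoa2* had log2 fold changes of -0.77 and -0.81, which passed the adjusted *p* without reaching a fold change of 2.

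Both sterol transporters were upregulated. *Abca1* (ENSMUSG00000015243, chr4:53030787-53159895, minus strand), which loads cholesterol and phospholipid onto lipid-poor apolipoproteins, had 3492, 2422 and 2118 CPM in infarcts compared with 84.9, 104 and 87.8 CPM on the contralateral side. Its fold change was 29.0 (log2 fold change 4.86, SE 0.25, adjusted *p* = 3.86e-07). *Abcg1* (ENSMUSG00000024030, chr17:31057675-31117988, plus strand), which passes cholesterol to more mature particles, had 561, 474 and 423 CPM in infarcts against 68.6, 83.5 and 87.3 CPM in the contralateral cortices (log2 fold change 2.61, SE 0.18, adjusted *p* = 1.54e-06). In both genes infarct 1 was the highest library and infarct 3 the lowest infarct. Per kb of exon, the log2 ratio of *Abca1* to *Abcg1* was 2.13, 1.85 and 1.82 in infarcts but -0.20, -0.19 and -0.50 in the contralateral cortices. There the levels of the 2 genes overlapped (8.90 ± 1.0 and 10.9 ± 1.35 CPM per kb, SD, n = 3). With the longest transcript as the length they did not overlap (8.99 ± 1.01 and 13.7 ± 1.69 CPM per kb). The ratio did not overlap between the regions, and no test was run on it. The summed markers of macrophages (9696, 8319 and 6022 CPM in infarcts 1, 2 and 3), microglia (908, 884 and 870 CPM) and endothelium (508, 420 and 391 CPM) followed the same order of infarcts as *Abca1*, and their part in it was not tested.

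The other ABCA and ABCG transporters moved in both directions. Of 20 such genes 12 were tested, of which 5 were called higher, 2 lower and 5 not, with a median log2 fold change of 0.62. *Abcg3* (4.17), *Abca9* (2.44), *Abca4* (2.0), *Abcg2* (1.46), a multidrug transporter of brain capillaries, and *Abca8a* (1.07) rose. *Abcg4*, a close relative of *Abcg1* that is expressed in neurons and astrocytes, had 7.73, 10.4 and 20.3 CPM in the infarcts, and 51.5, 49.0 and 54.5 CPM contralaterally and fell (log2 fold change -2.0, adjusted *p* = 6.02e-04). *Abca5* also fell (-1.34). *Abca2*, a transporter of myelin-forming cells, was at -0.16, and *Abca7*, a risk gene for Alzheimer's disease, was at 0.53, and neither was called.

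**Figure D3:**
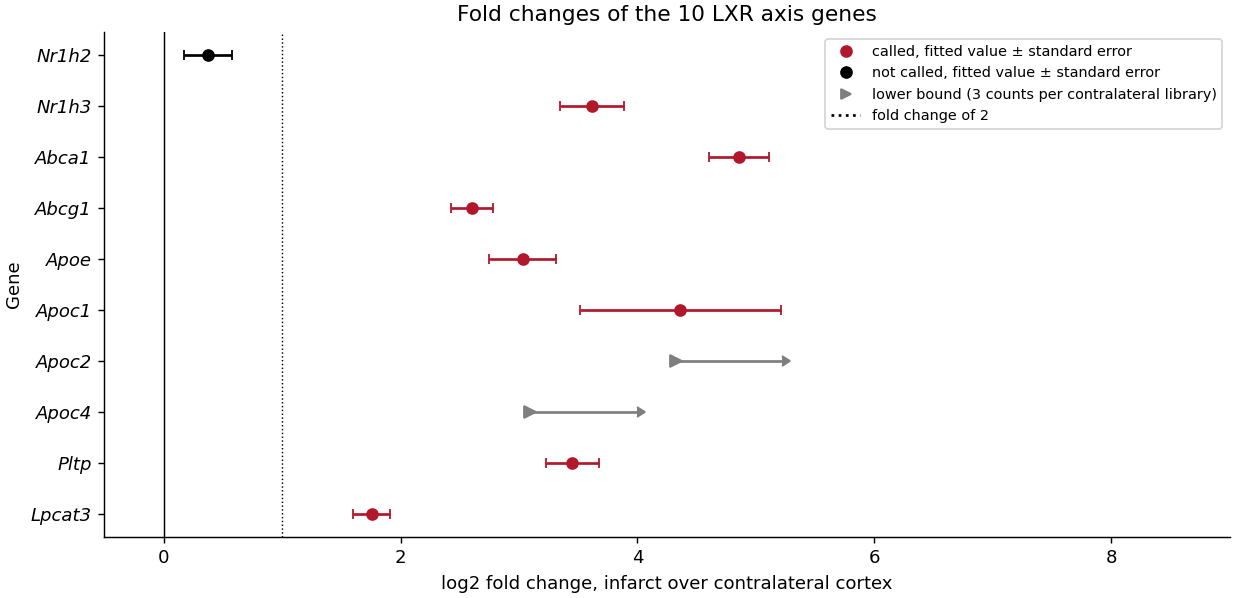
Log2 fold changes of the 10 genes between infarcts and contralateral cortices. Circles are fitted values with 1 standard error, and gray triangles with arrows are lower bounds, against 3 counts per contralateral library, for *Apoc2* and *Apoc4*, which had 0 counts there. *Abca1* is at 4.86, *Lpcat3* at 1.76, and *Nr1h2* at 0.38 is left of the dotted line at a fold change of 2.

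The 4 apolipoprotein genes lie in 1 cluster of 27610 bases on chromosome 7, all on the minus strand, in the order *Apoe*, *Apoc1*, *Apoc4* and *Apoc2* in the direction of transcription. *Apoe* (ENSMUSG00000002985, chr7:19696109-19699188), the main apolipoprotein of brain, had 498, 576 and 595 CPM in infarcts compared with 82.7, 39.6 and 81.8 CPM on the contralateral side. Contralateral cortex 2 was well below the other two, and the regions did not overlap. The fold change was 8.18 (log2 fold change 3.03, SE 0.28, adjusted *p* = 1.55e-05). *Apoc2* (ENSMUSG00000002992, chr7:19671579-19677941), the activator of lipoprotein lipase, had 58, 62 and 50 counts in infarcts against 0 counts in the contralateral cortices, which allows up to 3 counts in each, and it was at least 20.0-fold higher in infarcts. *Apoc4* (ENSMUSG00000074336, chr7:19678083-19681479) had 11, 26 and 38 counts in the infarcts and none contralaterally, and was at least 8.55-fold higher by the same limit of 3 counts per library. *Apoc1* (ENSMUSG00000040564, chr7:19689481-19692660), an inhibitor of lipoprotein receptor binding, had 13, 15 and 17 counts in the infarcts, and its only contralateral counts were 2 in cortex 3. The pooled ratio was 24.99, with an exact 95% interval from 6.53 to 213 that covers counting error only. Adjusted *p* values were 2.65e-05 for *Apoc2*, 4.70e-04 for *Apoc4* and 0.00133 for *Apoc1*. These genes had enough counts to be tested only through the infarcts. A gene this low contralaterally could enter the test only by being higher in infarcts, which limits what these *p* values show. The 3 genes reached 0.876 to 4.62 CPM in infarcts, and at this depth an absent transcript in contralateral cortex cannot be told from a low one.

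The apolipoprotein genes of the cluster did not share 1 order of the infarcts. *Apoe*, *Apoc1* and *Apoc4* were lowest in infarct 1 and highest in infarct 3, the opposite of *Abca1* and *Abcg1*. The order of *Apoc1* rests on 13, 15 and 17 counts. *Apoc2* was lowest in infarct 3, as the transporters were. Its values in infarcts 1 and 2 were close, at 4.62 and 4.55 CPM from 58 and 62 counts, so their order rests on the scaling. The summed markers of astrocytes (5409, 5785 and 7838 CPM in infarcts 1, 2 and 3), neurons (481, 691 and 1306 CPM) and oligodendrocytes (4341, 5001 and 6973 CPM) followed the order of *Apoe*, and their part in it was not tested. With 1 library per infarct these orders are a description.

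**Figure D4:**
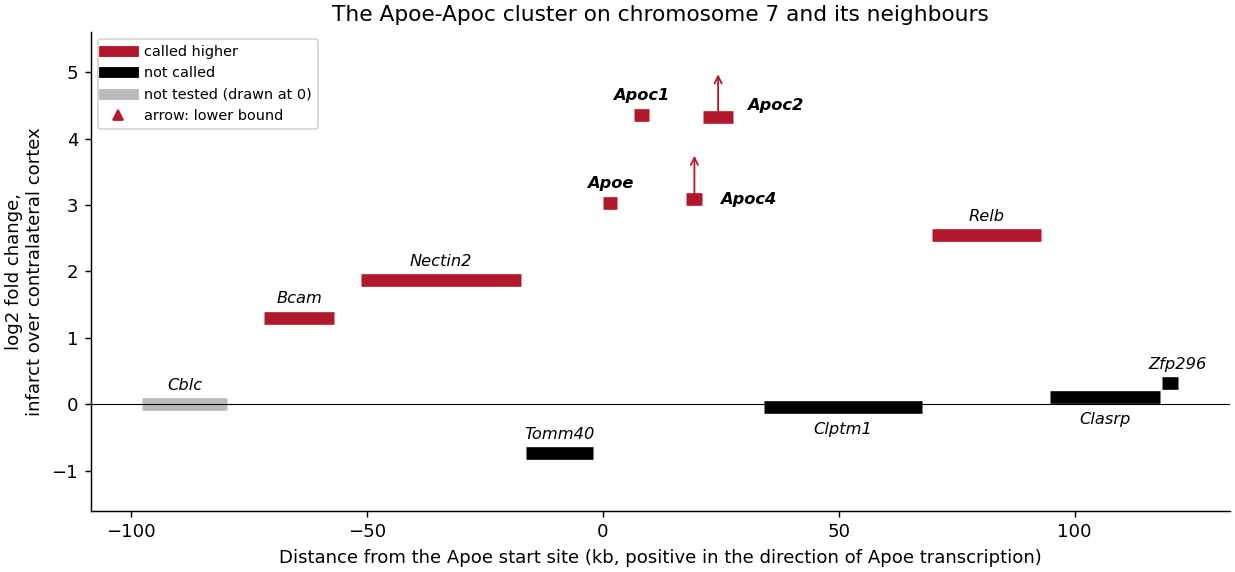
Log2 fold changes of the protein-coding genes within 100 kb of the *Apoe* cluster, drawn as bars over each gene's extent against the distance from the *Apoe* start site in kb. Arrows mark lower bounds, *Cblc* was not tested and is drawn at 0, and the 4 cluster genes (bold) are at 3.03 or above, while *Tomm40*, the next gene, is at -0.74.

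The neighbors of the cluster included called and uncalled genes. Of 8 other protein-coding genes within 100 kb, 3 were called higher, 0 lower, 4 were not called and *Cblc* was not tested. *Relb*, a subunit of NF-κB (log2 fold change 2.54, adjusted *p* = 1.35e-05), *Nectin2*, an adhesion molecule (1.87, adjusted *p* = 0.00133), and *Bcam*, a laminin receptor (1.30, adjusted *p* = 1.78e-04), rose. *Tomm40*, a mitochondrial import pore gene that ends beside *Apoe*, had 9.88, 8.22 and 10.7 CPM in the infarcts, and 15.5, 13.9 and 18.8 CPM contralaterally, with a log2 fold change of -0.74 (adjusted *p* = 0.0084) that did not reach a fold change of 2. *Clptm1*, on the other side of the cluster, was at -0.04. An annotated readthrough gene, *Gm44805*, shares 79.5% of the exon bases of *Apoc2* and 4.69% of those of *Apoc4* on the same strand. It has no entry in the count tables, so whether reads of a joint transcript entered the counts of *Apoc2* is uncertain.

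Outside the cluster, 2 of 11 other apolipoprotein genes were tested, and both rose. *Apod*, an apolipoprotein of glia and perivascular cells, had 1721, 1312 and 997 CPM in infarcts compared with 42.0, 48.4 and 38.2 CPM on the contralateral side (log2 fold change 4.97, adjusted *p* = 3.48e-07). *Clu*, which encodes apolipoprotein J, rose as well (1.01, adjusted *p* = 9.13e-04). *Apoa1*, *Apoa4*, *Apob* and the other apolipoprotein genes of liver and gut had at most 9 counts in any library and were not tested.

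*Pltp* and *Lpcat3* were both upregulated. *Pltp* (ENSMUSG00000017754, chr2:164839518-164857711, minus strand), which transfers phospholipids between lipoproteins, had 484, 334 and 336 CPM in infarcts against 32.9, 29.4 and 43.4 CPM in the contralateral cortices. Its fold change was 10.9 (log2 fold change 3.45, SE 0.23, adjusted *p* = 1.18e-06), and infarct 1 was well above the other two. Exons of *Ctsa*, on the other strand, cover 19.3% of its exon bases, and the strand setting of the counting is not given in the sources used here. *Ctsa* itself had 1786 to 2317 counts in infarcts, fewer than the 4545 to 6076 of *Pltp*. In contralateral cortices *Ctsa* had 275 to 402 counts and *Pltp* 451 to 629. Counts of *Ctsa* were thus also higher in infarcts, and its part in the values of *Pltp* was not tested. *Lpcat3* (ENSMUSG00000004270, chr6:124663027-124704418, plus strand), which puts polyunsaturated chains into phospholipids, had 38.8, 40.7 and 39.99 CPM in the infarcts, and 10.97, 11.98 and 12.5 CPM contralaterally. The libraries of each region lay very close together, and the log2 fold change was 1.76 (SE 0.15, adjusted *p* = 7.41e-06), the smallest among the 9 called genes. Exons of *Emg1* on the other strand cover 10.2% of its exon bases, and *Emg1* had 89 to 162 counts per library.

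Relatives of these 2 genes moved in both directions. Of 9 genes of the *Pltp* family and of lysophospholipid acyltransferases, 7 were tested, of which 3 were called higher, 2 lower and 2 not. *Lbp*, the lipopolysaccharide-binding relative of *Pltp*, rose from 11, 16 and 12 counts in contralateral cortices to 1260, 1207 and 1284 counts in infarcts (log2 fold change 6.70, adjusted *p* = 1.64e-07). *Lpcat2*, an enzyme that makes platelet-activating factor, and *Mboat1* rose (2.28 and 2.24). *Lpcat4* and *Mboat7*, the latter selective for arachidonate in phosphatidylinositol, fell (-2.72 and -1.29), while *Lpcat1* and *Mboat2* were at 0.58 and -0.85, short of a fold change of 2.

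Levels can be compared between the 10 genes per kb of exon. In infarcts *Apoe* (260 ± 24.0 CPM per kb) and *Abca1* (258 ± 69.7) stood first and overlapped, followed by *Pltp* (150 ± 33.6), *Abcg1* (66.6 ± 9.58) and *Lpcat3* (12.2 ± 0.293), each without overlap with the next (SD, n = 3). *Nr1h2*, *Nr1h3* and *Apoc2* (5.16 ± 0.835) formed an overlapping group, and *Apoc1* (1.48 ± 0.084) and *Apoc4* (0.707 ± 0.341) were lowest. In contralateral cortices *Apoe* was first with 31.8 ± 11.5 CPM per kb, above *Pltp*, *Abcg1* and *Abca1*, whose neighbors in the order overlapped at 13.7 ± 2.85, 10.9 ± 1.35 and 8.90 ± 1.0 CPM per kb. Next came *Nr1h2*, *Lpcat3* (3.61 ± 0.233) and *Nr1h3*. Among 15499 genes ranked per kb, *Abca1* stood at place 4377 in contralateral cortices and 72 in infarcts, *Apoe* at 1284 and 69, and *Pltp* at 3076 and 156. With the longest transcript as the length, *Apoe* (395 ± 36.4) lay above *Abca1* (261 ± 70.3) in infarcts without overlap, so whether they overlap rests on the choice of length. By that length *Nr1h2* (10.2 ± 1.98) also lay above *Apoc2* (5.77 ± 0.933) in infarcts without overlap. In contralateral cortices *Abcg1* (13.7 ± 1.69) then lay above *Abca1* (8.99 ± 1.01) without overlap. The median level per kb in contralateral cortices ranged from 3.73 to 5.59 CPM between classes of genes by GC content, the longest transcripts of the 10 genes range from 47.5% to 60.6% in GC, and its part in the order was not tested.

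Other genes that the receptors are known to switch on rose in part. Of 14 other LXR target genes 11 were tested, of which 7 were called higher, 0 lower and 4 not, with a median log2 fold change of 1.5. *Cd5l*, a macrophage protein, had 784, 364 and 305 CPM in infarcts compared with 0, 1 and 8 counts on the contralateral side (log2 fold change 11.14, SE 0.90). *Lpl*, the lipase that *Apoc2* activates, had 1563, 2210 and 1485 CPM in infarcts against 38.3, 31.6 and 34.6 CPM in the contralateral cortices (5.65, adjusted *p* = 1.70e-07). *Mylip*, whose product degrades lipoprotein receptors, rose (3.13), as did *Smpdl3a* (3.11), *Srebf1* (1.84), the master regulator of fatty acid synthesis, *Mertk* (1.5), an engulfment receptor, and *Arl4c* (1.18). The lipid synthesis genes of the list were not called, with log2 fold changes of 0.55 for *Scd1*, -0.08 for *Scd2*, -0.55 for *Fasn* and -0.07 for *Acaca*. The values of *Scd1* (adjusted *p* = 0.0108) and *Fasn* (adjusted *p* = 0.0141) passed the adjusted *p* without a fold change of 2. The 3 targets that were not tested, *Abcg5*, *Abcg8* and *Cyp7a1*, act mainly in liver and gut and had at most 4 counts in any library.

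**Figure D5:**
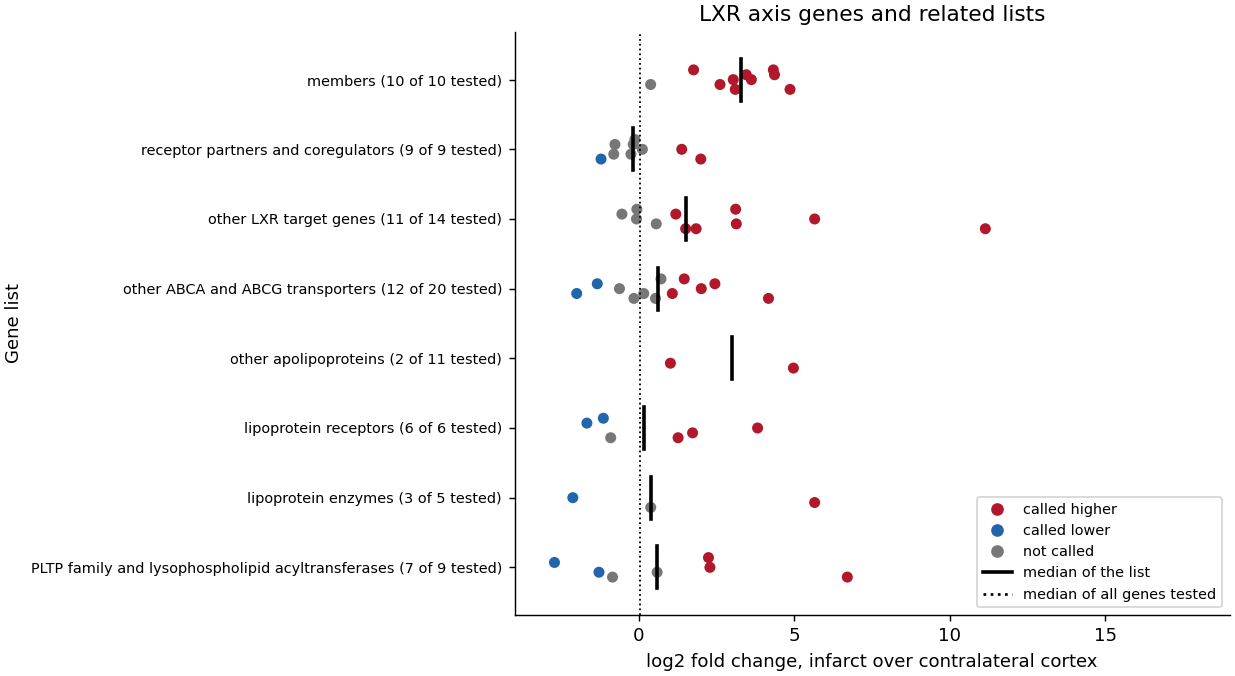
Log2 fold change of each tested gene in the list of 10 genes and in 7 related lists, colored by call, with a black bar at the list's median and a dotted line at the median of all genes tested (0.03). *Apoc2* and *Apoc4* are drawn at their lower bounds, and *Cd5l* at 11.14 is the rightmost point.

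Receptors and enzymes that handle lipoproteins outside the cell were split. Of 6 lipoprotein receptors, all tested, 3 were called higher, 2 lower and 1 not. *Lrp1*, a receptor for apolipoprotein E particles, had 2298, 1528 and 1515 CPM in the infarcts, and 494, 518 and 604 CPM contralaterally (log2 fold change 1.72, adjusted *p* = 7.12e-05). *Scarb1*, a receptor for high-density lipoprotein, rose (1.26), and so did *Lrp2* (3.82), from 5, 4 and 0 counts to 28, 19 and 71. *Lrp8*, a neuronal receptor for reelin and apolipoprotein E, fell (-1.68), as did *Sorl1* (-1.15). *Vldlr* was at -0.91, passing the adjusted *p* (3.94e-04) at a fold change below 2. Among 5 lipoprotein enzymes and their anchor, *Lpl* rose, *Lipg*, the endothelial lipase gene, fell (-2.13), *Lcat*, which esterifies cholesterol on particles, was at 0.38 and was not called, and *Lipc* and *Gpihbp1* were not tested.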

How the data were processed

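Bulk mRNA was sequenced from 3 infarcts and 3 contralateral cortices. Per the labels and the methods of the paper, the authors prepared stranded mRNA libraries, demultiplexed reads with bcl2fastq 2.19, trimmed them with Trimmomatic 0.32, aligned them to GRCm38 with STAR 2.5.2b and counted them by htseq-count. The deposited values are whole counts for each Ensembl gene and library, not normalized by the authors. The annotation release and strand setting of the counting are not given in the sources used here. Each table ends in 5 tallies of reads on no single gene, which were not used. Genes held 65.7% to 73.4% of tallied reads, and 2.35% to 2.64% were ambiguous. Identifiers were matched to GENCODE M21 on GRCm38 (45229 found, 849 not found but kept in the tests), and exon lengths are the union of its exons.

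Counts were analyzed with edgeR 4.0.16 in R 4.3.3 (filterByExpr, TMM scaling, region as the only term, robust glmQLFit and glmQLFTest). Its common biological coefficient of variation was 0.220. Counts on genes per library ranged from 11943570 to 19933962, and a count of 3 per library served as the floor for lower bounds, which cover counting error only (0.157 to 0.277 CPM in contralateral cortices). Named genes are the 10 genes, the called genes of the related lists, the others needed to give a list's range, and the neighbors of the *Apoe* cluster within 100 kb. The genes, lists and tests were chosen with earlier results of these data known. Of the related lists, 2 genes are not reported here and were left out of the list counts. The procedure was checked on simulated data. The alternatives were DESeq2 1.42.0, limma voom (limma 3.58.1), RLE, upper quartile and library total scaling, other filters and thresholds, glmTreat, the replicate number as a block, each library left out, the longest transcript as the length and, added after seeing the data, offsets by GC content and transcript length and bounds against 3 counts.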

Additional observations from a re-analysis of the deposited data

How the results depend on the processing

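The 9 genes called higher remained called with DESeq2, limma voom, the other scalings, no filter, glmTreat, no fold change threshold, GC and length offsets, and without any 1 library, and 0 genes were called lower under any of them. Under a minimum of 10 counts per library, 6 were called, since *Apoc1*, *Apoc2* and *Apoc4* were then not tested. Over all genes, 2789 of 12934 tested were called higher under that minimum. *Nr1h2* stayed uncalled throughout, at log2 fold changes from 0.24 to 0.58. Scaling by library totals moved the median over all genes from 0.03 to 0.23 on the log2 scale, and the GC and length offsets moved it to -0.19. With those offsets *Lpcat3* was at 1.23 and *Abca1* at 5.50. The fitted value of *Apoc1* rested on contralateral cortex 3, which holds its 2 contralateral counts: it was 4.36 with it and 7.06 without it. The log2 ratio of *Nr1h3* to *Nr1h2* differed by 3.12 to 3.44 with 1 library left out.

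The shared replicate numbers left no visible pairing in the values. Deviations of same-numbered libraries from their region means correlated at -0.21, 0.12 and 0.04, and no infarct correlated best with its own number. With so few libraries per region, these correlations cannot decide whether equal numbers mark the same mouse. With the number as a block, 9 of the 10 genes were called higher, and 3945 genes were called higher and 3222 lower over all genes, compared with 3999 and 3256 without it. Depth limits *Apoc1* and *Apoc4* most, at 11 to 38 counts per infarct.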
